A study of Mus musculus with 10 samples.

Results

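The circular RNAs (circRNAs) described here were first listed in the mouse retina at postnatal day 30 (P30). They were chosen by a rule on the counts themselves: a value above 0 in both P30 libraries and 0 in each of the 8 earlier libraries. The rule took 302 of the 9029 circRNAs of the table, which were 21.2% of the 1424 circRNAs listed in both P30 libraries. The other 1122 of those had been listed in at least 1 library before P30 and served for comparison. The retinae came from C57BL/6 mice at embryonic day 18.5 (E18.5) and postnatal days P1, P7, P14 and P30, with no treatment named in the labels. Each age had 2 libraries of total RNA from which ribosomal RNA had been depleted. Libraries are named by age and replicate number (E18.5 replicate 1, P1 replicates 1 and 2, P7 replicates 1 and 2, P14 replicates 1 and 3, P30 replicates 2 and 3), except for the second E18.5 library, whose number matched no label. The labels do not say whether the 2 libraries of an age came from separate animals, so every SD and p-value measures the spread between these libraries, which may be technical.

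A circRNA is made when splicing links a donor to an acceptor upstream of it in the same transcript, which closes the exons between them into a ring. The ring has no free ends and no poly(A) tail, so exonucleases that degrade linear RNA do not attack it and it can persist in cells that no longer divide. Neural tissues are rich in circRNAs, and the mouse retina goes on building photoreceptor outer segments and synapses after birth, so its cell composition and transcripts change over the ages sampled. One gene can give several circRNAs that use the same acceptor with different donors, or the same donor with different acceptors, and these appear in a table as entries with a shared end.

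Counts were low in all libraries. Library totals of circRNA counts ran from 6606.5 to 9611 over the 6 libraries up to P7, stood at 11773.5 (replicate 1) and 17048 (replicate 3) for P14, and reached 28104.5 (replicate 2) and 28658 (replicate 3) for P30. No value between 0 and 2 occurred in the table, so 2 counts was the smallest level listed. Scaled to a total of 1000000 circRNA counts per library (CPM) this minimum was worth 303 CPM in E18.5 replicate 1 and 69.8 CPM in P30 replicate 3. A circRNA at the same share of the counts could therefore be listed at P30 and stand at 0 at E18.5. The P30 libraries had the largest totals, so the effects of age and of total count cannot be told apart for them.

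The P30-first circRNAs made up 5.67% of the counts of P30 replicate 2 (a sum of 1594) and 6.09% of P30 replicate 3 (a sum of 1745.5). Their counts ran from 2 to 21.5 with a median of 4.5 in replicate 2, and from 2 to 25 with a median of 5 in replicate 3. The median over the mean of both libraries was 5 counts, or 176 CPM. The 1122 circRNAs that were also listed earlier had a median of 8.75 counts, or 309 CPM. Among those, the median was 10.75 counts for the 538 first listed at E18.5, 7.5 for 196 first listed at P1, 8 for 164 first listed at P7 and 6.75 for 224 first listed at P14. These levels chose the groups in part and carry no test.

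Few of the P30-first circRNAs reached 10 counts. At least 3 counts in both libraries were found for 218 of 302, at least 5 counts in both libraries for 85, and at least 10 counts in both for 11. At the low end, 84 held 2 or 2.5 counts in at least 1 P30 library, 14 did so in both, and 4 held exactly 2 in both. Just outside the rule, 888 circRNAs at 0 before P30 were listed in replicate 2 only (median 3 counts, highest 40), and 935 in replicate 3 only (median 3, highest 16). A further 218 circRNAs of both P30 libraries missed the rule by a value in exactly 1 earlier library, which was P14 replicate 3 for 87 and P14 replicate 1 for 60. That value was 2 counts for 25 of the 218, 2.5 for 29 and 3 for 29.

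**Figure D1:**
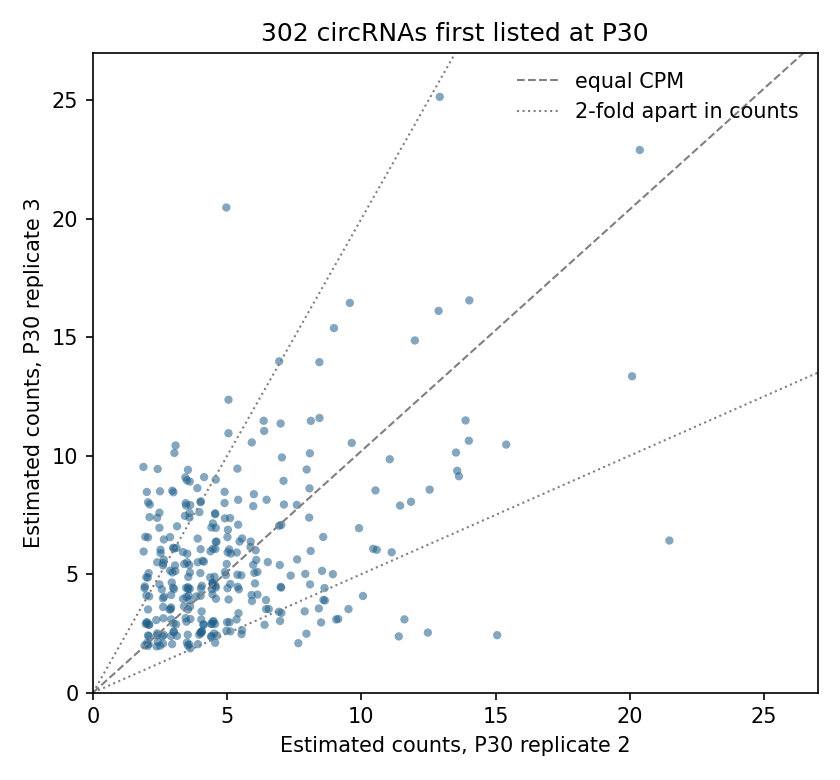
Estimated counts of the 302 P30-first circRNAs in P30 replicate 2 (x axis) against P30 replicate 3 (y axis), one point per circRNA, moved by at most 0.15 counts to separate ties; the dashed line marks equal CPM and the dotted lines a 2-fold difference in counts. Most points lie below 10 counts in both libraries, and 230 of 302 lie within 2-fold in CPM.

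The P30 libraries gave like levels for most of these circRNAs but ranked them only loosely. CPM agreed within 2-fold for 230 of the 302 (76.2%), against 78.8% of the circRNAs also listed earlier, and 6 were more than 4-fold apart. Both groups had to be listed in both P30 libraries, so this agreement was in part built into the choice. Of the circRNAs at 0 before P30, 1823 were listed in only 1 P30 library and were left out of it. Across the 302 the log2 CPM of both libraries correlated at r = 0.361 (Spearman's rho = 0.302), against r = 0.833 (rho = 0.755) across the 1122, whose counts spanned a wider range. These correlations are across circRNAs of the same pair of libraries, which are not independent replicates.

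The most abundant P30-first circRNA lay on the plus strand of chromosome 3 at 152082979 to 152091811 (mm9) with 20.5 counts in replicate 2 and 23 in replicate 3, a mean of 766 CPM ± 51.7 (SD, n = 2). It shared its start with a circRNA that ended 15 bases earlier, at 152091796, and that held 7 and 0 counts (E18.5), 16 and 0 (P1), 7 and 0 (P7), 7 and 21 (P14), and 41 and 33 (P30). At this locus a circRNA was therefore counted at every age, and the one listed only at P30 was a variant with a nearby end. The second by level, on the plus strand of chromosome 11 at 29433226 to 29435266, had 13 and 25 counts (667 CPM ± 290, SD, n = 2). It shared its start with a circRNA ending at 29445101 that stood at 2 and 3.5 counts (P1), 2 and 6 (P7), 0 and 0 (P14), and 13 and 14 (P30). That partner was at 0 in both E18.5 libraries.

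The third by level, on the plus strand of chromosome 15 at 68825482 to 68847904, had 20 and 13.5 counts (591 CPM ± 170, SD, n = 2). Its start was also used by another P30-first circRNA, ending at 68855269, with 5 and 20.5 counts, so the library that held more of one held less of the other. A circRNA with the same start and an end at 68879891 held 79 and 93.5 counts at P30, 8.5 in P1 replicate 1 and 0 in every other earlier library. A single early library thus decided that this circRNA was not itself P30-first. It was singled out after its values were seen.

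Of the other 7 among the 10 most abundant, 4 shared no end with any listed circRNA and overlapped none listed before P30. These were chromosome 7 at 99794500 to 99814375 on the minus strand with 14 and 16.5 counts, chromosome 6 at 119217825 to 119232268 on the plus strand with 13 and 16, chromosome 17 at 30661658 to 30667310 on the minus strand with 21.5 and 6.5, and chromosome 18 at 77998757 to 77999316 on the plus strand with 9.5 and 16.5. The chromosome 17 circRNA was the highest of all 302 in replicate 2, yet its level was 496 CPM ± 381 (SD, n = 2) because replicate 3 held far less. The remaining 3 were chromosome 6 at 58793598 to 58844618 on the plus strand (12 and 15 counts), chromosome 14 at 13272385 to 13290343 on the minus strand (15.5 and 10.5) and chromosome 19 at 56871934 to 56876479 on the minus strand (14 and 11.5). Each of these shared at least 1 end with another listed circRNA.

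Few of the P30-first circRNAs had a database entry. A database ID named 19 of the 302 (6.29%), and the other 283 were given by position and strand. Among the 1122 also listed earlier, 367 (32.7%) had a database ID, with 48.0% of those first listed at E18.5, 26.0% (P1), 14.0% (P7) and 15.6% (P14). The gap was also seen at like counts. With a mean of 4 to under 6 counts in the P30 libraries, 8.47% of the P30-first circRNAs and 21.7% of the others had an ID, and with 6 to under 10 counts 5.33% and 27.6%. The most counted P30-first circRNA with an ID was mmu_circ_0000135, with 6.5 and 11.5 counts. Circles with an ID carry no position in the table, so spans, chromosomes and ends below refer to the 283 with positions and to 755 of the others.

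The span, from the first to the last genomic base with introns included, ran from 313 to 95118 bases with a median of 13616. The median of the 755 others was 11734 bases, and by the age of first listing it was 11017.5 (E18.5), 9453 (P1), 11724 (P7) and 14347 (P14). The P30-first circRNAs fell into 13 under 1 kb, 97 of 1 to 10 kb, 140 of 10 to 50 kb and 33 of 50 kb or more. Spans of 50 kb or more were 11.7% of them and 6.49% of the others. Within classes of mean P30 counts the medians were 13539 against 10256.5 bases (2 to under 4 counts), 14931 against 11329.5 (4 to under 6), 12409 against 10633 (6 to under 10) and 17959 against 13335 (10 or more). The P30-first median was the larger in each of these 4 classes. Span and mean CPM did not correlate among the P30-first circRNAs (r = −0.01 on log2 scales, n = 283). The span says nothing of the length of the circle itself, since the exons it holds are not given.

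The shortest lay on the plus strand of chromosome 11 at 67523006 to 67523318, 313 bases, with 2 and 4.5 counts. The widest lay on the plus strand of chromosome 4 at 137638808 to 137733925, 95118 bases, with 3 and 3.5 counts. Both stood near the listing minimum.

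The 283 were spread over 20 chromosomes, 150 on the plus and 133 on the minus strand. Chromosome 4 held the most, 34 of 283, against 52 of the 755 others (6.89%). Chromosome 1 followed with 26 (9.19%, others 8.74%), chromosome 11 with 19 and chromosomes 2 and 5 with 18 each. Chromosome 2 held 6.36% of the P30-first circRNAs and 10.1% of the others. Chromosomes 12, 16 and 19 held 7 each. Over all chromosomes the positioned circRNAs of both P30 libraries were the 283 and the 755 others. The 21.2% given at the start includes database IDs and is not the base for shares by chromosome. P30-first circRNAs were 39.5% of the positioned circRNAs of chromosome 4 listed in both P30 libraries. Chromosome 4 did not stand apart in this share, which was 38.9% on chromosome 13 and 35.4% on chromosome 7. It was 34.2% on chromosome 17, 34.1% on chromosome 8 and lowest, at 15.6%, on chromosome 12. Circles of the same locus fall on the same chromosome together, so these counts are not of independent events.

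Shared ends were common. An end was shared exactly with another listed circRNA of the same strand by 180 of 283 (63.6%), against 534 of 755 others (70.7%). Only the acceptor was shared by 83, only the donor by 48 and both by 49, the last with different partners at each end. Among the 755 the same counts were 246, 106 and 182. An end shared with a circRNA listed before P30 was found for 132 (46.6%), against 438 of the others (58.0%), and 48 had only partners first seen at P30. By level, an end was shared by 55.6% of the P30-first circRNAs and 64.8% of the others with a mean of 2 to under 4 counts. These shares were 66.7% and 66.9% with 4 to under 6 counts, 69.0% and 68.8% with 6 to under 10, and 60.9% and 76.6% with 10 or more. A circRNA listed earlier overlapped 154 of the 283 on the same strand (54.4%), against 494 of 755 (65.4%). So 129 P30-first circRNAs lay where no positioned circRNA of that strand had been listed before.

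The number of partners was 1 for 77 circRNAs, 2 for 40 and 3 or more for 63, with 9 the most. The partners that were not P30-first numbered 321, of which 189 had been listed before P30 and 132 stood only in 1 P30 library. The 189 were first listed at E18.5 in 34 cases, at P1 in 33, at P7 in 35 and at P14 in 87, and 65 of them were at 0 in both P30 libraries. Their summed share of a library's circRNA counts was 1.29% and 1.35% (E18.5), 1.66% and 1.49% (P1), 3.04% and 2.88% (P7), 5.13% and 4.89% (P14), and 6.83% and 6.44% (P30). Each age from P7 on lay above the one before in both libraries. A part of these sums lay in 1 circRNA, on the minus strand of chromosome 4 at 102732223 to 102745448. It held 92 of 604 and 78 of 833.5 partner counts in P14 replicates 1 and 3. In P30 replicates 2 and 3 it held 425.5 of 1920 and 495 of 1845. The shares without it were not calculated. The other 3335 positioned circRNAs listed before P30 took 38.4% and 38.6% (E18.5), 43.7% and 47.0% (P14) and 36.1% and 35.5% (P30). The partners share ends with circRNAs chosen for a value at P30, so a high share at P30 was built into the choice in part, and no test was made of it.

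**Figure D2:**
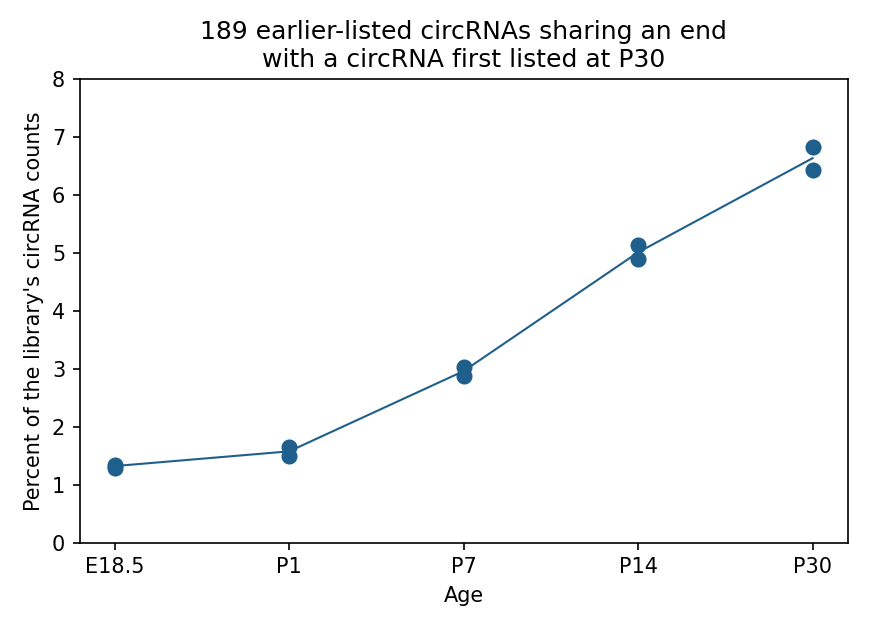
Summed share of each library's circRNA counts (y axis, percent) held by the 189 earlier-listed circRNAs that share an end with a P30-first circRNA, by age (x axis); points are the 2 libraries of each age and the line joins their means. The share lay between 1.29% and 1.66% at E18.5 and P1 and between 6.44% and 6.83% at P30. In P30 replicates 2 and 3, 1 of the 189 held 425.5 of 1920 and 495 of 1845 of these counts.

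Overlap of P30-first circRNAs with one another joined 54 of them into 22 sets, 19 of which were pairs. The largest held 6, all on the plus strand of chromosome 4 with 1 acceptor at 137638808 and 6 different donors. The circRNA ending at 137653274 had 12.5 and 2.5 counts, that ending at 137682549 had 7 and 14, and that ending at 137702288 had 5.5 and 6. Those ending at 137714425, 137721845 and 137733925 had 4 and 2.5, 4 and 3, and 3 and 3.5 counts. The 6 summed to 36 and 31.5 counts, so as a locus they stood well above any single one. Their spans ran from 14467 to 95118 bases.

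The same 95.1 kb held 14 listed circRNAs, 5 of them listed before P30. The 8 that were not P30-first summed to 0 and 2.5 counts (E18.5), 3 and 7.5 (P1), 0 and 7.5 (P7), 18 and 7 (P14), and 42.5 and 44 (P30). The shared acceptor itself was listed before P30 in a single value, 7.5 counts in P14 replicate 1 for the circRNA ending at 137661351, which had 6 and 6.5 at P30. The other 4 circRNAs listed earlier began at 137652667 or 137702200.

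**Figure D3:**
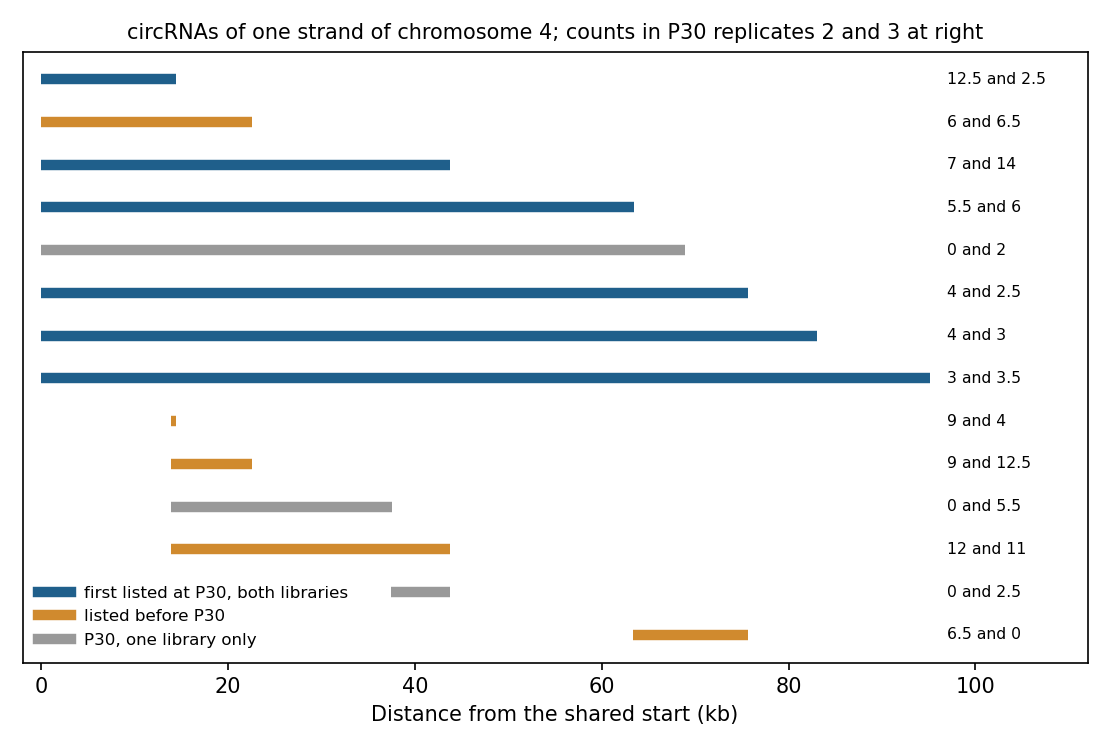
The 14 listed circRNAs of the chromosome 4 set, one bar each, drawn as distance from the shared start in kb (x axis); colour marks P30-first circRNAs, circRNAs listed before P30 and circRNAs of 1 P30 library, and the numbers at the right are counts in P30 replicates 2 and 3. The 6 P30-first bars share 1 start and end 14.5 to 95.1 kb from it.

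A set of 5 lay on the plus strand of chromosome 6 at 58793598 to 58844618, with 3 starts and 3 ends. The 58793598 start was joined to 58826875 (5 and 7.5 counts) and to 58844618 (12 and 15). The 58804867 start was joined to 58813043 (9 and 15.5) and to 58844618 (3.5 and 5.5). A circRNA at 58837402 to 58844618 had 8.5 and 4. The other circRNAs of this locus stood at 0 up to and including P7, held 8.5 and 45.5 counts in P14 replicates 1 and 3, and 56.5 and 51 at P30. At this locus the first circRNAs were therefore listed at P14. The P14 libraries differed more than 4-fold in counts, which were not scaled to their unequal totals of 11773.5 (replicate 1) and 17048 (replicate 3).

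A further set of 5 lay on the plus strand of chromosome 15 at 39268543 to 39448056, a stretch of 179.5 kb with 24 listed circRNAs, 12 of them listed before P30. The P30-first circRNAs held 2.5 and 8.5 counts (39268543 to 39310256), 7.5 and 8 (39283586 to 39342920), 5.5 and 2.5 (39283770 to 39294156), 2 and 6 (39283770 to 39367527), and 8 and 4.5 (39367418 to 39448056). The other circRNAs of the locus summed to 57 and 58.5 counts (P14) and 115 and 140 (P30), against 0 to 8 in the earlier libraries. The P30-first circRNAs of this locus thus added 25.5 and 29.5 counts to a locus with far more in other circles.

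Near copies, with both ends within 50 bases of another listed circRNA on the same strand, were rare: 2 of 283 P30-first circRNAs had one, both listed before P30. Besides the chromosome 3 circRNA above, the other was on the minus strand of chromosome 1 at 53273075 to 53338936 (3.5 and 5.5 counts), whose copy started 44 bases away, at 53273031, and had 2 counts in P1 replicate 1 and 2.5 and 2 at P30. None of the 283 had a copy within 5 bases.

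The partners with the highest total counts were far above the P30-first circRNAs that share their ends. They were picked for these totals, so the contrast was built into the choice and does not hold for partners at large. Of the 189 partners listed before P30, 65 were at 0 in both P30 libraries. The circRNA at 102732223 to 102745448 on the minus strand of chromosome 4 held 5.5 and 0 counts (E18.5), 4 and 5.5 (P1), 12 and 6.5 (P7), 92 and 78 (P14), and 425.5 and 495 (P30). Its level rose from 6195 CPM ± 2290 (SD, n = 2) in the P14 libraries to 16206 CPM ± 1508 (SD, n = 2) in those of P30. Both P30 values lay above both P14 values. The P30-first circRNAs that use its end start at 102711837 (2.5 and 2 counts) and 102720556 (4.5 and 9 counts).

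On chromosome 14 the plus strand circRNA at 52740148 to 52753534 held 0 and 0 counts (E18.5), 0 and 9 (P1), 57 and 42 (P7), 62 and 97 (P14), and 116 and 110 (P30), and the P30-first circRNA with its start, ending at 52751107, held 2.5 and 2.5. The circRNA at 52740148 to 52740796 held 0 and 0, 0 and 2, 22.5 and 13, 48.5 and 57.5, and 96 and 90.5 counts in the same order, and the P30-first circRNA with its end, starting at 52738871, held 4 and 8.5. Both partners were listed in every library from P7 on, whereas the P30-first circRNAs beside them stayed below 10 counts. The circRNA at 90865844 to 90871951 on the minus strand of chromosome X held 5.5 and 12, 10.5 and 11, 7 and 8, 13 and 22.5, and 73 and 89 counts, and the P30-first circRNA with its end, starting at 90806707, held 4 and 5.5.

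Whether the partners themselves changed from P14 to P30 was tested with edgeR's quasi-likelihood test over the whole table (adjusted p under 0.05, Benjamini-Hochberg). No P30-first circRNA passed the low-count filter of this main fit, so none was tested in it, and 11 partners did. Of all 327 circRNAs tested, 9 were called (2.75%), 7 of them higher at P30 (2.14%). Of the 11 partners 2 were called, both higher at P30. However, 3 of the 11 passed the low-count filter only through their P30 counts, and 1 of these 3 was called. The partners lie at loci that the rule chose for values at P30, so this count is a description and no independent evidence that these loci rose. The partner on chromosome 4 ending at 102745448 was called (log2 fold change 1.75, SE 0.365, edgeR adjusted p = 0.0245), and so was the circRNA of chromosome 15 ending at 68879891 (edgeR adjusted p = 0.0245), for which no fold is given because both P14 libraries were at 0. The chromosome 15 circRNA was the called one that passed the filter only through P30, so its call adds nothing to its counts. The other named partners were not: log2 fold changes were 1.57 on chromosome X (edgeR adjusted p = 0.101), −0.13 for the chromosome 14 circRNA ending at 52753534 (adjusted p = 0.936) and 0.15 for that ending at 52740796 (adjusted p = 0.915). Both calls were lost in the fit with a replicate block and with a filter of at least 10 counts in both libraries of an age, in which no circRNA was called, and when any 1 of P7 replicate 2, P14 replicate 1, P14 replicate 3, P30 replicate 2 or P30 replicate 3 was left out. The chromosome 4 call was also lost without P1 replicate 1 and with only P14 and P30 in the fit, and the chromosome 15 call with DESeq2 (adjusted p = 0.525). Over its alternatives the adjusted p of the chromosome 15 circRNA ran from 5.61e-08 without a low-count filter to this value.

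How many of the P30-first circRNAs would be missed at the totals of the earlier ages was calculated from the P30 libraries. When both P30 libraries were thinned by binomial sampling to the 2 totals of an earlier age, with 2 counts still needed, the expected number kept in both was 45.4 of 302 at the E18.5 totals, 74.5 (P1), 67.7 (P7) and 154 (P14). The share no longer in both libraries was thus 85.0%, 75.3%, 77.6% and 49.1%, against 54.4%, 44.0%, 46.4% and 24.6% of the 1122 others. The share lost from both was 42.9% at the E18.5 totals, 29.8% (P1), 31.5% (P7) and 8.94% (P14). At the P14 totals most of the 302 would be expected in at least 1 library, whereas at the E18.5 totals many would not.

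In a second calculation each circRNA kept its mean P30 share, and the expected number below 2 counts followed from a Poisson count at each earlier total. Of the 302, 197 and 187 would then be missed (E18.5), 156 and 163 (P1), 148 and 182 (P7), and 120 and 71.1 (P14), which was 65.1% in E18.5 replicate 1 and 23.6% in P14 replicate 3. The median expected count was 1.16 in E18.5 replicate 1 and 2.99 in P14 replicate 3, so it lay below 2 in the smallest library and above 2 in the largest. Missing all 8 together was much rarer: 7.67 of the 302 would be expected below 2 counts in all 8 libraries. Over all 1424 circRNAs of both P30 libraries the expected number was 18.0, and 302 were observed. The levels in both calculations came from P30 counts that had to reach 2 in both P30 libraries. Such a choice can set low levels too high, and the expected losses then come out too low. Its part in the gap between 18.0 and 302 was not tested.

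**Figure D4:**
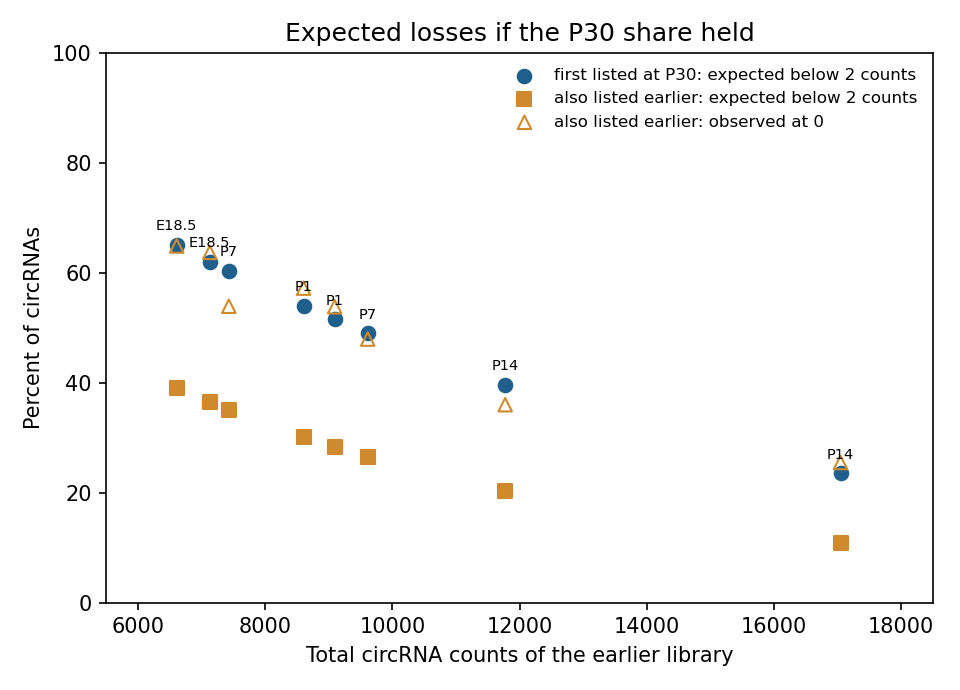
Percent of circRNAs (y axis) expected below 2 counts in each of the 8 earlier libraries if their P30 share had held, against the library's total circRNA counts (x axis), for the P30-first circRNAs (circles, labelled by age) and those also listed earlier (squares), with the percent of the latter that stood at 0 (triangles). The circRNAs also listed earlier stood at 0 more often than expected in every library, 64.9% against 39.1% in E18.5 replicate 1 and 25.5% against 10.9% in P14 replicate 3.

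Counting error alone did not describe how the P30 libraries differed, and this bears on the number above. Of 2800 circRNAs listed in P30 replicate 2, 1376 (49.1%) stood at 0 in replicate 3, where 318 (11.4%) would be expected below 2 counts by Poisson at the level of replicate 2. By counts in 1 library, the share at 0 in the other was 78.1% for 2 to under 3 counts (34.8% expected), 55.9% for 5 to under 6 (3.43% expected), 23.4% for 8 to under 12 and 1.21% for 20 or more. The level was taken from a library in which the circRNA had passed the minimum, and the part of this choice in the gap was not tested. When these measured shares replaced the Poisson ones, 35.7 of the 302 were expected to be missed in all 8 libraries with the lowest class used below 2 expected counts, and 177 if every circRNA under 2 expected counts was taken as missed. Over all 1424 the same calculations gave 113 and 494, on either side of the 302 observed. The expected number missed in all 8 libraries thus ranged from 7.67 to 177 with the way misses were modelled.

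**Figure D5:**
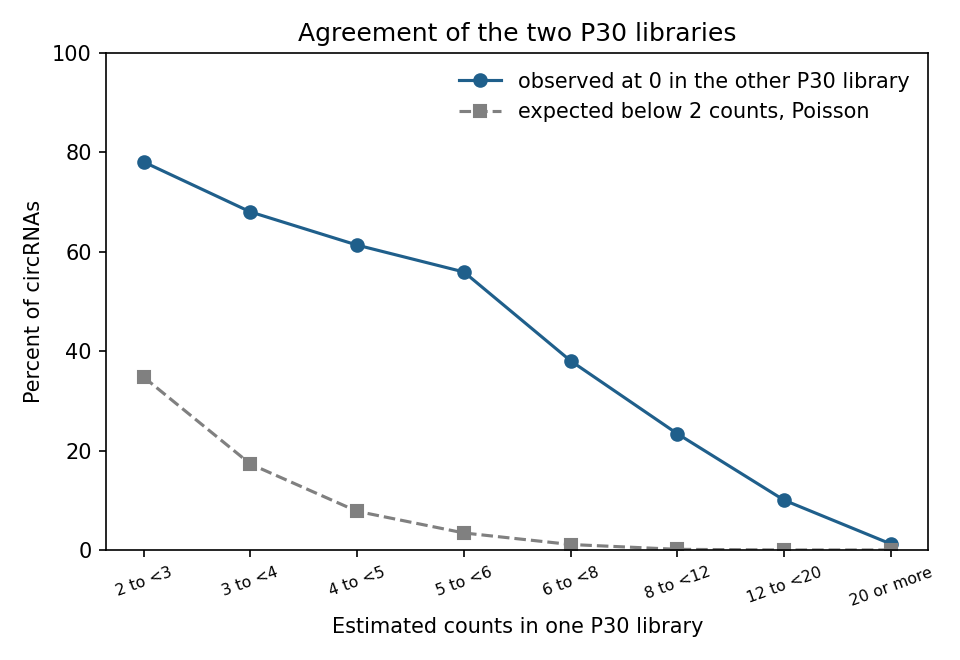
Percent of circRNAs at 0 in the other P30 library (y axis) by their counts in 1 P30 library (x axis, classes of estimated counts), both libraries pooled; circles are observed and squares are expected below 2 counts by Poisson at the same level. The observed share fell from 78.1% in the lowest class to 1.21% in the highest and lay above the expected one in each.

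The same rule applied to each of the other ages gave far fewer circRNAs. Listed in both libraries of an age and at no other age were 10 of 378 circRNAs at E18.5, 17 of 551 (P1), 6 of 520 (P7), 20 of 765 (P14) and 302 of 1424 (P30). The share was 2.65% (E18.5), 3.09% (P1), 1.15% (P7) and 2.61% (P14), against 21.2% (P30). P30 was also the age with the largest totals, so a circRNA of low level was most easily seen there. The shares are not like for like either, since P30 had no later age. At E18.5 to P14 a circRNA that stayed listed at a later age was left out. Of the circRNAs of both P30 libraries, 224 were first listed at P14 and so could not count there.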

How the data were processed

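Retinae of 5 ages were sequenced from ribosome-depleted total RNA, 2 libraries per age. The authors deposited estimated counts per circRNA and library, not normalized, in steps of 0.5 with none between 0 and 2; Trimmomatic and mm9 are named in the submitters' notes. For the circRNA caller, the fractional values and the minimum, the sources used here give no account. Deposited starts count from 0, so 1 was added. No annotation or genome of mm9 was at hand, so no host gene is named and no sequence printed. The members and lists were chosen with earlier results of these data known. Named circRNAs were the 10 with the highest mean CPM at P30, the 3 largest overlapping sets, the widest and shortest span, and the 5 whose partners, circRNAs outside the rule with a shared end, had the highest total counts.

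For the P30 against P14 test counts were rounded and fitted with edgeR 4.0.16 (TMM, filterByExpr with minimum count 10 and total 15, age as factor, all 10 libraries) in R 4.3.3. The common dispersion was 0.125. edgeR's test gives no SE, so the SE printed is the absolute log2 fold change divided by the square root of the test's F value. Alternatives were DESeq2 1.42.0, other scalings and filters, fewer ages, a replicate block and each library left out. Expected losses came from binomial and Poisson formulas, and were calculated in Python 3.11.15 with numpy 2.4.6, scipy 1.17.1 and pandas 2.3.3. Expected numbers cover counting error only. Measured miss rates, a negative binomial count and near copies were added after the data were seen.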

Additional observations from a re-analysis of the deposited data

How the results depend on the processing

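The count of 302 P30-first circRNAs stayed within 1.5 times under 3 counts or a lenient earlier limit and without any 1 earlier library or near copies, ranged from 307 to 1237 with each library left out (1190 and 1237 without a P30 library), and was 85 at 5 counts or more in both. The 7.67 expected below the minimum in all 8 libraries became 51.7 with a minimum of 3, 21.4 with the lower P30 share, 11.8 to 14.2 with 1 P30 library as the level, and 35.7 or 177 with measured miss rates. It was 8.13 with a negative binomial count, 9.28 with binomial thinning and 9.86 without the 10 most abundant circRNAs. Of 84 circRNAs at 5 counts or more in both P30 libraries, 57 (67.9%) shared an end. The P30 against P14 fit with at least 10 counts in both libraries of an age tested 496 circRNAs, 14 of them P30-first. All 14 were at unadjusted p under 0.05 (edgeR), but the rule had set them to 0 at P14. Their part of the 93 below was therefore fixed by the choice. P30 against P14 gave 9 calls, 15 with DESeq2, 4 with no filter, 2 with only these ages, 0 with at least 10 counts in both libraries of an age (93 at unadjusted p under 0.05) and 0 to 11 with each library left out, where filterByExpr kept more circRNAs because an age then had 1 library. Of partners, 2 were called, 1 with DESeq2, 1 with only these ages, 0 with the 10-count filter and 0 to 2 with each library left out. With a replicate block over the numbered libraries 0 were called in all (32 at unadjusted p under 0.05) and 0 of the partners; the labels do not say that the numbers pair samples. The chromosome 14 partner ending at 52753534 ranged from −0.26 to 0.0063 with each library left out (0.0063 without P14 replicate 3), and that ending at 52740796 was −0.059 with the 10-count filter; neither was called. The cause was not tested. At 8 to under 12 counts in 1 P30 library, 23.4% of circRNAs still stood at 0 in the other.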
